A study of Mus musculus with 6 samples.

Results

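The genes studied here encode, in the nucleus, the subunits of the mitochondrial respiratory chain and of ATP synthase. They were followed in 6 mouse RNA-seq libraries, 3 labelled young (mice of 3 months) and 3 labelled aged (mice of 18 months), all labelled as lung, and the comparison asks how the level of each subunit RNA differed between these age groups. The labels give no strain, sex, genotype or treatment, and nothing in them ties the 3 libraries of an age group to separate animals. The p-values therefore measure only how far these libraries lie apart, and that spread could be technical. The members were chosen by symbol: protein-coding genes outside the mitochondrial chromosome named Nduf followed by a, b, c, s or v, Sdha to Sdhd, Uqcr, Cox4 to Cox8 or Atp5, without Ndufa4l2. This took 93 of the 54532 genes in the table. They comprise 36 subunit genes of complex I (NADH dehydrogenase), 4 of complex II (succinate dehydrogenase), 8 of complex III (the cytochrome bc1 complex), 19 of complex IV (cytochrome c oxidase, counting its subunit Ndufa4 and the supercomplex factor Cox7a2l) and 17 rows of ATP synthase. The same symbols also took 8 complex I assembly factors (Ndufaf1 to Ndufaf8), which are not subunits of the finished enzyme, and Atp5s, a coupling factor-like protein.

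As background, complexes I and II pass electrons from NADH and succinate to ubiquinone, complex III passes them on to cytochrome c, and complex IV hands them to oxygen. Complexes I, III and IV pump protons across the inner mitochondrial membrane, and ATP synthase uses their return to make ATP. The catalytic cores of complexes III and IV and the proton-pumping core of complex I depend on subunits encoded by mitochondrial DNA, while complex II is encoded wholly in the nucleus, so most complexes are built from the products of both genomes. Some complex IV subunits, and subunit c of ATP synthase, have several genes each, which differ in their tissue use.

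The libraries held between 16649061 and 17456715 reads each, recovered from the deposited values. Many defining markers of lung tissue were absent or nearly so: of 5 alveolar type 2 markers 4 stayed at or below 1 FPKM (fragments per kilobase of exon, scaled to a library size) in every library, Sftpc reached 0.112 FPKM at most, and all 4 endothelial markers stayed at or below 1 FPKM. Of 5 alveolar type 1 markers, Ager reached 0.68 FPKM at most, while Aqp5 stood at 55.2 to 58.5 FPKM in the young and 83.5 to 93.6 FPKM in the aged libraries and Pdpn at 36.6 to 39.5 and 86.9 to 96.0 FPKM, and the list summed to 104 to 110 and 178 to 196 FPKM. The leukocyte markers summed to 10.3 to 12.7 FPKM in the young and 34.9 to 35.4 FPKM in the aged libraries, from Lyz2 and Cd68, with Ptprc, the pan-leukocyte marker, at 0.0953 FPKM at most. Of 5 fibroblast markers 4, and all 4 markers of dividing cells were at 10 FPKM or more in every library, and the summed fibroblast markers ranged from 645 to 670 FPKM in the young and from 400 to 446 FPKM in the aged libraries. The summed kidney tubule markers reached 132 FPKM in young library 1 and 26.3 FPKM in young library 3, against 0.749 FPKM in young library 2 and 1.08 to 1.64 FPKM in the aged libraries. Their part in the results was not tested, and the counts of changed members are therefore also given without those libraries. In bulk RNA, fewer cells of a type and less RNA per cell cannot be told apart.

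Of the 93 members, 87 reached 0.5 FPKM in at least 3 of the 6 libraries and were tested. Differences are given as aged minus young on the log2(FPKM + 1) scale with their standard error, and "rose" or "fell" is used for an adjusted p under 0.05 in limma, adjusted over all 15197 genes tested. In all, 22 members rose, 28 fell and 37 did not pass the threshold. Over all genes tested 60.0% passed it, 27.7% upward and 32.3% downward, and the members' share of 57.5% lay close to that. The members are abundant, however. Among 5362 protein-coding genes at or above a cut low in the members' range of levels, 73.67% passed, 34.35% upward and 39.31% downward. Compared with these genes, the members passed the threshold less often in both directions. The balance of directions was not firm. When each library was centred on its median gene, 26 members were higher and 22 lower, and all genes split 4988 to 4026. That centring takes off a difference of -0.0659 between the groups' medians. More members stayed lower than higher with TPM (25 higher, 29 lower), quantile normalization (26 and 27) and voom on recovered reads (26 and 29). Leaving out young library 3 gave 25 higher and 24 lower. Without young libraries 1 and 3, which leaves 1 young library and assumes that it varied like the aged group, 15 members were higher and 23 lower. The 3 aged values lay above all 3 young values for 24 members and below them for 34, where all genes gave 31.3% and 35.6%. The changes were small. The median size of a member's difference was 0.22, against 0.28 over all genes tested, and 6 members (6.90%) changed by at least 1.5-fold on this scale, against 18.8% of all genes. Members were among the more abundant RNAs, with a median of 51.7 FPKM and a median level percentile of 93.5 among the genes tested.

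**Figure D1:**
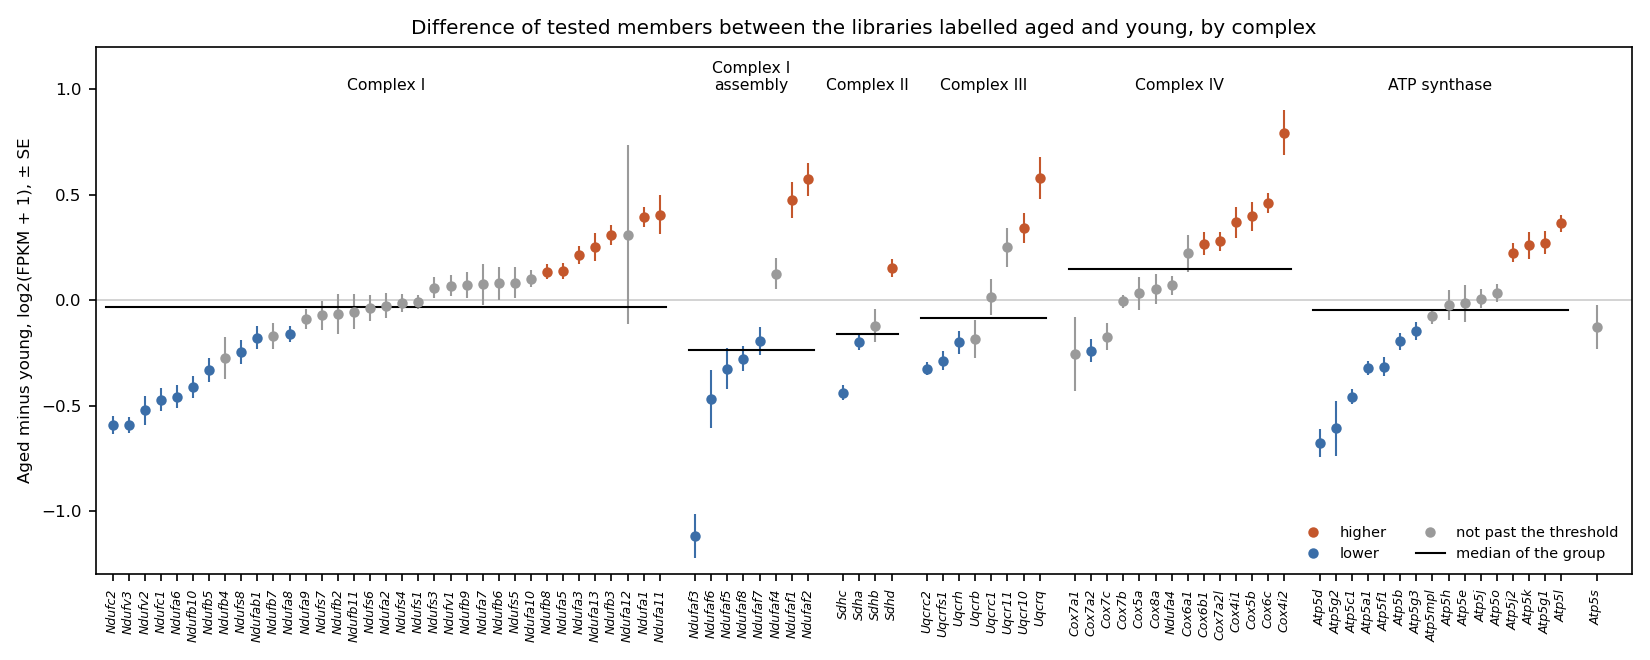
Difference of the tested members (1 member is not drawn) between the libraries labelled aged and young, as log2(FPKM + 1) with its standard error (vertical lines), ordered by size within each complex. Orange points rose, blue points fell and grey points did not pass the threshold, and black lines mark the median of each group; complex IV has its median above 0 and the other groups have theirs below 0, though median centring moves those of complex I and ATP synthase above 0.

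Complex I had members moving in both directions: 7 of its 36 subunit genes rose, 10 fell and 19 did not pass the threshold, with a median difference of -0.03 (all genes -0.03). The falls included subunits of the NADH-oxidising tip of the matrix arm, while the rises lay mostly among small accessory subunits of the membrane arm. Among 10 genes of the electron input module none rose and 3 fell. Among 20 other accessory subunits, most of them in the membrane arm, 6 rose and 5 fell.

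Ndufc2, a small membrane arm subunit (chromosome 7, 97400003 to 97407802, plus strand, mm10), stood at 145, 155 and 159 FPKM in the young libraries and at 102, 103 and 97.9 FPKM in the aged ones. By FPKM it was the most abundant complex I member. It was also the complex I member that fell most, by 0.59 ± 0.04 on the log2 scale (1.51-fold lower, adjusted p = 5.2e-05 in limma). Ndufv3, an accessory subunit of the NADH-binding flavoprotein part (chromosome 17, 31520115 to 31531326, plus strand), read 26.8, 28.3 and 26.9 FPKM in the young and 17.8, 18.3 and 17.4 FPKM in the aged libraries. It fell by 0.59 ± 0.04 (adjusted p = 2.8e-05), with every aged value below every young value. Ndufv2, which carries an iron-sulphur cluster beside the flavin site, had 61.2, 62.8 and 68.5 FPKM in the young and 47.3, 45.5 and 40.4 FPKM in the aged libraries, a fall of 0.52 ± 0.07 (adjusted p = 0.00067). Their partners at the same site did not pass the threshold. Ndufv1, which binds NADH and the flavin, went from 44.0 ± 2.35 to 46.1 ± 2.16 FPKM (mean ± SD, n = 3) with an adjusted p of 0.29 in limma. Ndufs1, the largest iron-sulphur subunit of that arm, was nearly level at 16.4 ± 0.123 and 16.2 ± 0.330 FPKM (difference -0.01 ± 0.03, adjusted p = 0.81 in limma). These 2 genes, like other members outside the naming rule, were picked out after their values were seen. The remaining call in this module was the accessory subunit Ndufa6, which fell by 0.46 ± 0.05.

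In the ubiquinone-reducing module, which hands the electrons to ubiquinone, Ndufs8, an iron-sulphur subunit, fell by 0.25 ± 0.06 and the accessory subunit Ndufa5 rose by 0.14 ± 0.04. Ndufs3 and Ndufs7, core subunits of that module, did not pass the threshold (differences 0.06 and -0.07). The calls of Ndufs8 and Ndufa5 were lost without young libraries 1 and 3, and that of Ndufa5 also without aged library 2. Ndufab1, the mitochondrial acyl carrier protein that is also a complex I subunit, fell from 10.1 ± 0.696 to 8.77 ± 0.228 FPKM (adjusted p = 0.027 in limma), a call lost without any library but young 1, with median centring, quantile normalization or a replicate block (libraries paired by number), and with no filter on low values.

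The largest rises in complex I were in Ndufa11, Ndufa1 and Ndufb3, all accessory subunits of the membrane arm. Ndufa11 read 27.6, 33.3 and 31.7 FPKM in the young libraries and 44.0, 43.0 and 36.6 FPKM in the aged ones, a rise of 0.41 ± 0.09 (adjusted p = 0.0077). Ndufa1 read 91.3, 95.7 and 96.1 FPKM and then 132, 118 and 123 FPKM, a rise of 0.39 ± 0.05 (adjusted p = 0.0005). Ndufb3 read 60.3, 63.9 and 63.2 FPKM and then 82.7, 76.5 and 73.8 FPKM, a rise of 0.31 ± 0.05 (adjusted p = 0.0016). The groups did not overlap for any of the 3 genes, but Ndufa11 lost its call when young libraries 1 and 3 were left out. Within the same arm Ndufc1 fell by 0.47 ± 0.05 and Ndufb10 by 0.41 ± 0.05. Ndufb2, the least abundant complex I subunit gene, was at 1.11, 1.13 and 1.06 FPKM in the young and 1.12, 0.796 and 1.13 FPKM in the aged libraries and did not pass the threshold.

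Ndufa12, an accessory subunit of the electron input module, stood apart from all other members by its spread. It read 19.9, 54.7 and 21.5 FPKM in the young and 23.1, 43.4 and 45.7 FPKM in the aged libraries. Values near 20 FPKM and values above 40 FPKM thus occurred in both groups, and the difference of 0.31 ± 0.42 did not pass the threshold (adjusted p = 0.56 in limma). The range within a group reached 1.42 on the log2 scale, against 0.73 for the next member, Cox7a1, and a median of 0.18 over the members. Of 5535 genes at a mean of 10 FPKM or more, 13 had a larger range, among them the pseudogene Rps25-ps1, the genes Rps27a and Sumo2, and the mitochondrial gene mt-Atp8. Nr2c1, a neighbouring gene, stayed between 5.35 and 6.11 FPKM.

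A processed pseudogene, Gm15920, is 99.5% identical to Ndufa12 over 402 bases and was counted at 68.3 to 105 FPKM. It received 36.9% of the reads counted for the pair. Added to those of Ndufa12, its reads gave sums of 1010, 2034 and 1310 in the young and 1183, 1666 and 1708 in the aged libraries, and young 1 remained the lowest and young 2 the highest library after summing. Whether the counting divided reads between the gene and its copy was not tested.

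**Figure D2:**
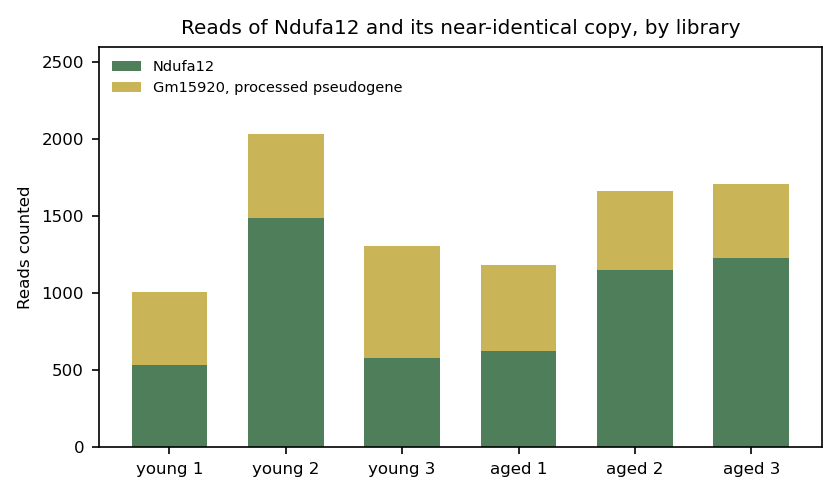
Reads counted per library for Ndufa12 (green) and for its near-identical processed pseudogene Gm15920 (yellow), stacked; the reads were recovered from the deposited FPKM values. Ndufa12 ranges from 537 reads (young 1) to 1491 reads (young 2), and the copy from 473 to 727 reads.

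The 8 complex I assembly factors taken by the symbols had 2 rises, 5 falls and 1 gene that did not pass, with a median difference of -0.23 and a median size of 0.40. Ndufaf3, which works in early assembly of the matrix arm, had 7.10, 8.60 and 9.10 FPKM in the young and 3.65, 2.86 and 3.27 FPKM in the aged libraries. This was the largest fall of any member, 1.12 on the log2 scale with a standard error of 0.10 (2.54-fold lower, adjusted p = 0.00014). Ndufaf2, a late assembly chaperone, went the other way, from 6.47, 8.01 and 7.49 FPKM to 11.4, 11.9 and 10.7 FPKM, a rise of 0.57 ± 0.08 (adjusted p = 0.00075). Ndufaf1, which helps build the membrane arm, rose from 9.32, 9.48 and 7.80 FPKM to 13.6, 12.7 and 11.7 FPKM, by 0.47 ± 0.08 (adjusted p = 0.0026). Neither gene's groups overlapped. The falls of Ndufaf6 (by 0.47 ± 0.14), Ndufaf5 (by 0.32 ± 0.10), Ndufaf8 (by 0.28 ± 0.06) and Ndufaf7 (by 0.19 ± 0.07) were smaller. Ndufaf6 lost its call without aged library 1 or 2 or young library 2 or 3, Ndufaf5 without aged 2 or 3 or young 1 or 2, Ndufaf7 without aged 1 or 2 or young 1 or 3, and Ndufaf8 without young 1 and 3 together or with voom on recovered reads. With no filter on low values Ndufaf5, Ndufaf6 and Ndufaf7 lost theirs too, as did Ndufaf5 and Ndufaf7 with median centring, and Ndufaf7 also with TPM, quantile normalization and without limma's trend. Ndufaf4 read 5.92 ± 0.358 and 6.56 ± 0.615 FPKM (difference 0.13 ± 0.07, adjusted p = 0.18 in limma).

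A list of 10 further complex I assembly genes had 4 rises, 2 falls and a median difference of 0.04. The smallest p-values belonged to Tmem126a (0.62 ± 0.04), Tmem186 (0.65 ± 0.08) and Tmem70 (-0.53 ± 0.07), of which the last also serves ATP synthase assembly.

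In complex II, whose 4 subunits all come from nuclear genes, the catalytic Sdha and the membrane anchor Sdhc fell, the other anchor Sdhd rose and the iron-sulphur subunit Sdhb did not pass. Sdhc read 43.6, 44.5 and 45.6 FPKM in the young and 33.5, 32.8 and 31.6 FPKM in the aged libraries, a fall of 0.44 ± 0.03 (1.37-fold lower, adjusted p = 6.8e-05). Sdha read 88.2, 93.7 and 93.4 FPKM and then 78.8, 78.9 and 81.6 FPKM, a fall of 0.20 ± 0.04 (adjusted p = 0.0029). Sdhd read 135, 139 and 138 FPKM and then 154, 144 and 159 FPKM, a rise of 0.15 ± 0.04 (adjusted p = 0.019 in limma). The 2 anchors, which sit together in the membrane, thus differed in direction with no overlap between groups for either. The call of Sdhd was lost with the replicate block and when aged library 1, young library 1, or young libraries 1 and 3 together were left out. Sdhb overlapped, at 46.4 ± 3.70 and 42.6 ± 3.66 FPKM (adjusted p = 0.22 in limma). Of 4 complex II assembly factors, Sdhaf2, which inserts the flavin into Sdha, rose by 0.71 ± 0.04, Sdhaf3 fell by 0.25 ± 0.07 (a call lost without any library but aged 3 and young 3, with median centring, with the replicate block and with no filter), and Sdhaf1 and Sdhaf4 did not pass.

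In complex III, of 3 core and catalytic genes in the nucleus 2 fell and none rose, and of 5 accessory genes 2 rose and 1 fell; the difference between these roles was not tested. Uqcrc2, a core protein, read 55.8, 57.1 and 57.1 FPKM in the young and 46.0, 44.8 and 44.3 FPKM in the aged libraries, a fall of 0.32 ± 0.03 (adjusted p = 0.00013). Uqcrfs1, the Rieske iron-sulphur protein, read 109, 106 and 108 FPKM and then 92.0, 83.2 and 89.5 FPKM, a fall of 0.29 ± 0.04 (adjusted p = 0.0013). Uqcrc1, the other core protein, had overlapping groups at 68.7 ± 4.88 and 69.5 ± 7.31 FPKM (adjusted p = 0.90 in limma). Cyc1, the cytochrome c1 of the same complex, lies outside the symbol rule and fell from 80.1 ± 3.18 to 66.1 ± 3.31 FPKM (adjusted p = 0.0026 in limma).

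Uqcrq, the small subunit that binds cytochrome b (chromosome 11, 53427922 to 53430831, minus strand), had the largest rise among the subunits of complex III. It read 42.4, 50.2 and 54.9 FPKM in the young and 79.6, 73.5 and 68.0 FPKM in the aged libraries, a rise of 0.58 ± 0.10 (adjusted p = 0.0023). Uqcr10, the most abundant complex III gene by FPKM, rose from 128, 136 and 155 FPKM to 183, 178 and 170 FPKM, by 0.34 ± 0.07 (adjusted p = 0.0058 in limma). Uqcrh, the hinge protein at the cytochrome c side, went down from 87.0, 95.9 and 98.3 FPKM to 78.4, 84.2 and 81.4 FPKM, by 0.20 ± 0.05 (adjusted p = 0.016 in limma). All 3 genes had groups that did not overlap, and the call of Uqcrh was lost with median centring and without aged library 1 or young library 2 or 3. Uqcr11, at 121, 144 and 146 against 177, 163 and 149 FPKM, lay just outside the threshold (difference 0.25 ± 0.09, adjusted p = 0.0505 in limma), and so did Ndufb4, Cox7c and Ndufb7, with adjusted p between 0.051 and 0.053.

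In complex IV 6 of 14 tested genes rose (42.9%), 1 fell and 7 did not pass. Of all genes tested 27.7% rose and 32.3% fell. Of the protein-coding genes in the members' range of levels 34.35% rose and 39.31% fell. Whether the shares among these 14 genes differed from those backgrounds was not tested. The median difference of complex IV was 0.15, with a spread of 0.06 (SD) between replicates. Its summed level was 1788, 1948 and 2018 FPKM in the young and 2220, 2157 and 2011 FPKM in the aged libraries, which overlapped.

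Cox6c, a small nuclear subunit, read 66.8, 68.9 and 72.8 FPKM in the young and 99.0, 97.8 and 91.2 FPKM in the aged libraries, a rise of 0.46 ± 0.05 (1.38-fold, adjusted p = 0.00022). Cox5b, a zinc-binding subunit, read 85.0, 89.0 and 95.3 FPKM and then 127, 121 and 108 FPKM, a rise of 0.40 ± 0.07 (adjusted p = 0.0025 in limma). Gm11273, a gene labelled protein-coding and 99.2% identical to Cox5b over 390 bases, took 10.6% of the reads counted for the pair. Cox4i1, the usual form of the largest nuclear subunit, read 170, 195 and 196 FPKM and then 250, 252 and 224 FPKM, a rise of 0.37 ± 0.07 (adjusted p = 0.004). The rises of Cox6b1, which faces the intermembrane space (from 197 ± 8.55 to 237 ± 13.9 FPKM), and Cox7a2l were 0.27 ± 0.05 and 0.28 ± 0.04. Cox8a, the most abundant complex IV member by FPKM, had overlapping groups at 384, 440 and 448 against 466, 429 and 421 FPKM. Cox7b, Cox5a and Ndufa4 were likewise level, with differences between -0.01 and 0.07.

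Tissue-restricted forms made up a small share. Cox4i2, the alternative Cox4 form known from lung and from its dependence on oxygen (chromosome 2, 152754173 to 152765037, plus strand), read 0.737, 0.512 and 0.368 FPKM in the young and 1.70, 1.57 and 1.70 FPKM in the aged libraries. The groups did not overlap and the rise of 0.79 ± 0.11 (adjusted p = 0.00071) was the largest of any member on this scale. It rested on 22 reads in the 3 young and 67 reads in the 3 aged libraries, and the FPKM ratio was 3.07. Its share of the Cox4 pair moved from 0.293% ± 0.125 to 0.683% ± 0.0659 (SD, n = 3), so Cox4i1 made up at least 99.3% on the mean of either group. With a pseudocount of 0.1 FPKM the difference was 1.64.

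Cox7a1, the heart and muscle form, read 12.7, 16.5 and 9.53 FPKM in the young and 11.3, 10.6 and 9.35 FPKM in the aged libraries and did not pass (adjusted p = 0.25 in limma). Cox7a2, the widely used form, fell from 77.6, 79.8 and 87.3 FPKM to 69.6, 71.6 and 65.5 FPKM, by 0.24 ± 0.06 (adjusted p = 0.0083), and lost its call without young libraries 1 and 3. Cox7a2l, a related protein that joins complexes III and IV into supercomplexes, rose from 71.6, 64.3 and 68.9 FPKM to 82.4, 82.4 and 84.1 FPKM (adjusted p = 0.0015). Within this family of 3 genes the share of Cox7a2 was 50.1% ± 2.40 in the young and 42.5% ± 1.15 in the aged libraries, and that of Cox7a2l was 42.0% ± 2.13 and 51.1% ± 1.54. The summed level of the family hardly moved, at 163 and 162 FPKM. A processed pseudogene of Cox7a2l, Gm6969, took 35.5% of the reads counted for the pair.

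The forms Cox6a2 (muscle), Cox6b2, Cox7b2 and Cox8c (testis) and Cox8b (muscle and brown fat) were below the filter. Their highest values were 0.939 FPKM for Cox6a2, 0.208 FPKM for Cox6b2 and 0.107 FPKM for Cox7b2, and Cox8b and Cox8c had no read in any library. Of 8 muscle markers 6, of 7 testis markers 6 and of 4 brown fat markers 3 likewise stayed at or below 1 FPKM. Their widely used counterparts Cox6a1 (from 360 ± 36.1 to 419 ± 28.9 FPKM) and Cox8a did not pass the threshold.

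**Figure D3:**
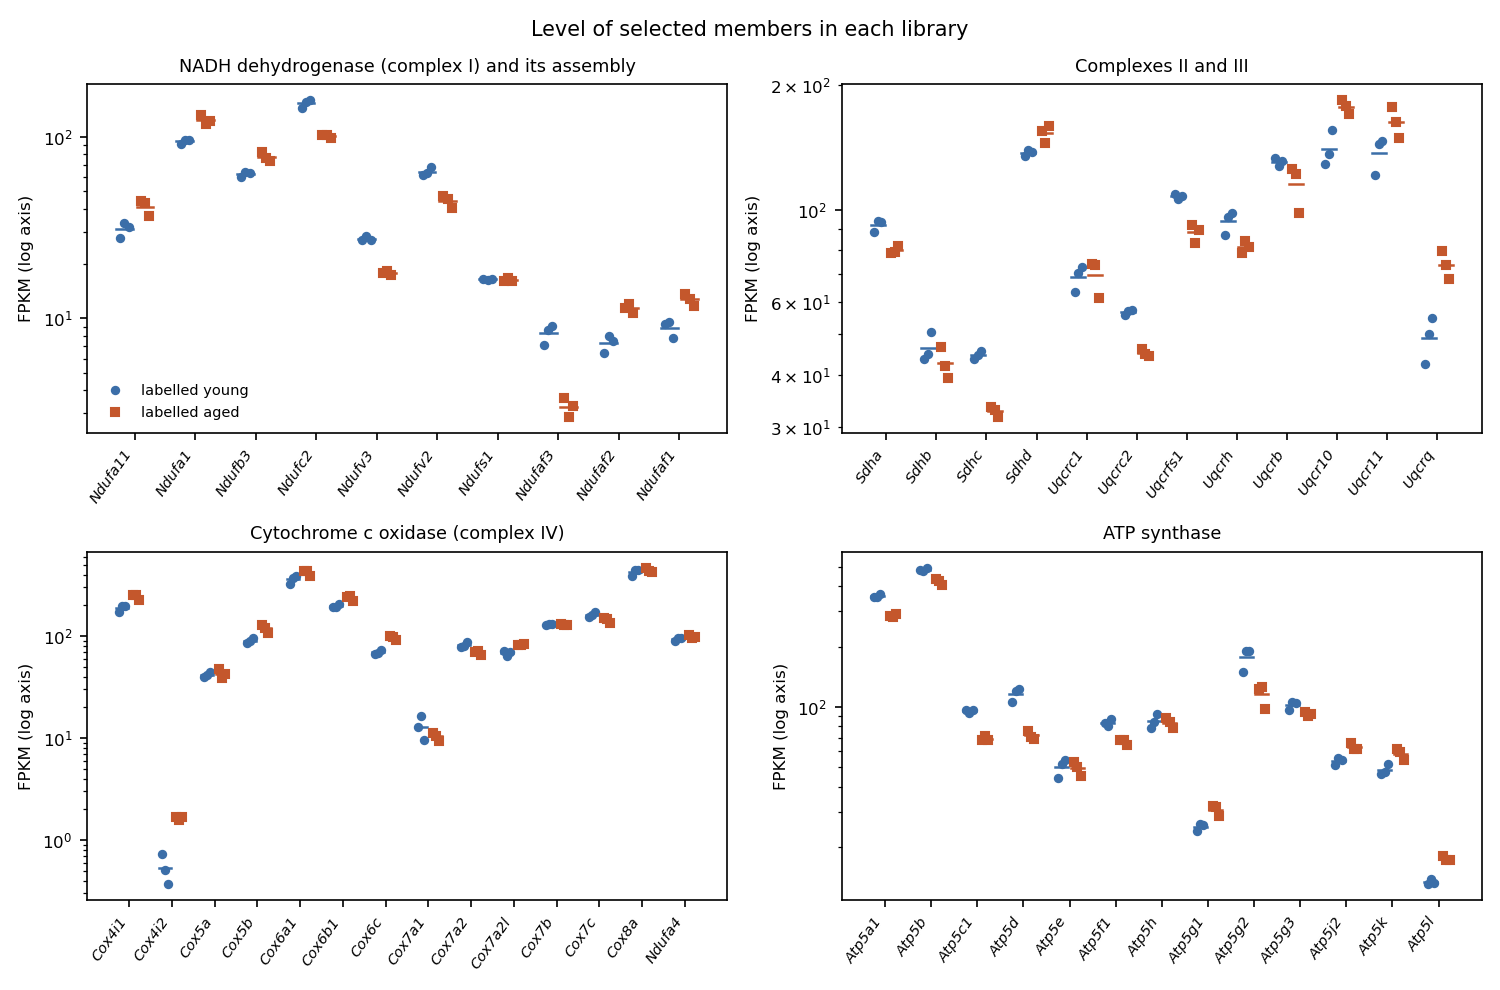
Level of selected members in each library, in FPKM on logarithmic axes; blue circles are the libraries labelled young, orange squares those labelled aged, and short lines are the group means. Ndufaf3, Sdhc, Uqcrc2 and Atp5c1 have every aged value below the young ones, while Uqcrq, Cox6c, Cox4i2 and Atp5l have every aged value above them.

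In ATP synthase both catalytic head genes, 2 of 3 central stalk genes and 1 of 4 tested peripheral stalk genes fell and none of them rose, while 3 of 4 membrane accessory genes rose and none fell. The difference between these roles was not tested. Over the 16 tested rows 4 rose, 7 fell and 5 did not pass, with a median difference of -0.05. The summed level was 1720, 1798 and 1858 FPKM in the young and 1566, 1540 and 1473 FPKM in the aged libraries. These sums did not overlap, and the aged mean was 0.852 of the young.

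Atp5b, the catalytic beta subunit and the most abundant member of all, read 480, 477 and 495 FPKM in the young and 434, 427 and 407 FPKM in the aged libraries. It fell by 0.20 ± 0.04 (adjusted p = 0.005), but the difference was -0.004 under quantile normalization and the call was also lost without young libraries 1 and 3. Its partner in the head, Atp5a1, fell from 358 ± 6.02 to 286 ± 5.05 FPKM (by 0.32 ± 0.03, adjusted p = 0.00023 in limma). Atp5d, the delta subunit of the central stalk (chromosome 10, 80138632 to 80145818, plus strand), read 105, 120 and 122 FPKM and then 76.1, 71.0 and 69.2 FPKM. Its fall of 0.68 ± 0.07 (1.61-fold lower, adjusted p = 0.00018) was the largest among the subunits. Atp5c1, the gamma subunit that turns within the head, read 96.2, 93.3 and 96.5 FPKM and then 68.1, 71.5 and 68.1 FPKM, a fall of 0.46 ± 0.03 (1.38-fold lower, adjusted p = 5e-05). Atp5e, the epsilon subunit and the remaining part of the stalk, overlapped at 44.1, 51.8 and 54.1 against 53.1, 49.9 and 45.3 FPKM (adjusted p = 0.90 in limma).

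The peripheral stalk holds the head still while the rotor turns. Of its genes Atp5f1 fell by 0.32 ± 0.04, and Atp5h, Atp5j and Atp5o had differences of -0.02, 0.01 and 0.03. A further row named Atp5o had no read in any library and was not tested. Atp5l, a membrane subunit at the dimer interface, read 13.0, 13.8 and 13.2 FPKM in the young and 18.1, 17.2 and 17.2 FPKM in the aged libraries, a rise of 0.36 ± 0.04 (adjusted p = 0.00029). Atp5k, at the same interface, rose from 46.5, 47.3 and 52.0 FPKM to 61.3, 59.8 and 54.0 FPKM, by 0.26 ± 0.06 (adjusted p = 0.01 in limma), and lost its call without young libraries 1 and 3. Atp5j2, another membrane subunit, rose by 0.23 ± 0.04, also lost without these libraries, and Atp5mpl did not pass (-0.08 ± 0.04). Atp5l has 9 near-identical copies, which received 17.5% of the reads counted for the gene and its copies. Among them Gm10221, 100% identical over 309 bases, stood at 51.9 to 81.1 FPKM. The sums with all copies were 1725, 1886 and 1783 reads in the young and 2447, 2305 and 2269 in the aged libraries. The table length of Atp5l, 6443 bases, is 11.8 times its principal transcript. Atpif1, the inhibitor that binds the head when the proton gradient fails, lies outside the symbol rule and fell from 33.9 ± 1.18 to 27.3 ± 0.878 FPKM (adjusted p = 0.00065 in limma). Atp5s was at 3.87 ± 0.462 and 3.46 ± 0.502 FPKM and did not pass.

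Subunit c, the building block of the rotor ring, is made from 3 genes whose last 78 codons encode the same residues. The first 90 bases of that shared stretch, which take in part of the mature protein, are shown to make visible how the genes differ in letters while they encode the same peptide; capitals mark positions where the 3 genes do not all carry the same base.
Atp5g1: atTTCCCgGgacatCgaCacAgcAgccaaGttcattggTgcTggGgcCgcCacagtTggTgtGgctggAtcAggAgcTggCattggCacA
Atp5g2: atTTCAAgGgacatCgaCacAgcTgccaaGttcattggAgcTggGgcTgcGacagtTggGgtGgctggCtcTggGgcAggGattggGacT
Atp5g3: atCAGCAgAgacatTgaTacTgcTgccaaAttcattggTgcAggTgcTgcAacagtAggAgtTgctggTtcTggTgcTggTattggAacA
Over all 234 bases of the stretch, Atp5g1 and Atp5g2 were 84.6% identical, Atp5g1 and Atp5g3 78.6%, and Atp5g2 and Atp5g3 77.4%. The longest run without a difference was 20 bases, so reads from the 3 genes can be told apart from one another. Pseudogene copies are harder to separate. Gm10039, 99.8% identical to Atp5g1 over 411 bases, stood at 45.7 to 61.3 FPKM and received 14.2% of the reads counted for the pair. Gm10175 and Gm10231, 100% identical to Atp5g2 over 645 and 441 bases, reached 9.64 and 1.97 FPKM at most. Whether the counting divided reads between these genes and their copies was not tested.

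The 3 genes differed in direction. Atp5g2 read 149, 190 and 191 FPKM in the young and 123, 126 and 97.4 FPKM in the aged libraries, a fall of 0.61 ± 0.13 (1.53-fold lower, adjusted p = 0.0062). Atp5g3 fell by less, from 96.9, 106 and 105 FPKM to 94.3, 90.5 and 92.6 FPKM (by 0.15 ± 0.04, adjusted p = 0.021 in limma), and lost its call with median centring, with the replicate block and without aged library 2 or young library 2 or 3. Atp5g1 rose from 24.0, 25.9 and 25.9 FPKM to 32.1, 31.6 and 28.5 FPKM, by 0.27 ± 0.05 (adjusted p = 0.0047), a call lost without young libraries 1 and 3. In shares of the summed subunit c level, Atp5g1 went from 8.33% ± 0.487 to 12.9% ± 0.169 (SD, n = 3) and Atp5g2 from 57.9% ± 2.29 to 48.2% ± 3.27. Neither share overlapped between groups. The shares leave out the reads counted for the pseudogene copies, and they depend on the lengths the table divides by. Per principal transcript, the mean levels would be 29.2 for Atp5g1, 335 for Atp5g2 and 294 for Atp5g3, with the same order. The principal transcript of Atp5g1 has 4715 bases, near its table length of 4912, against 731 for Atp5g2 and 723 for Atp5g3. That order therefore cannot show whether the low share of Atp5g1 would hold for a shorter transcript.

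**Figure D4:**
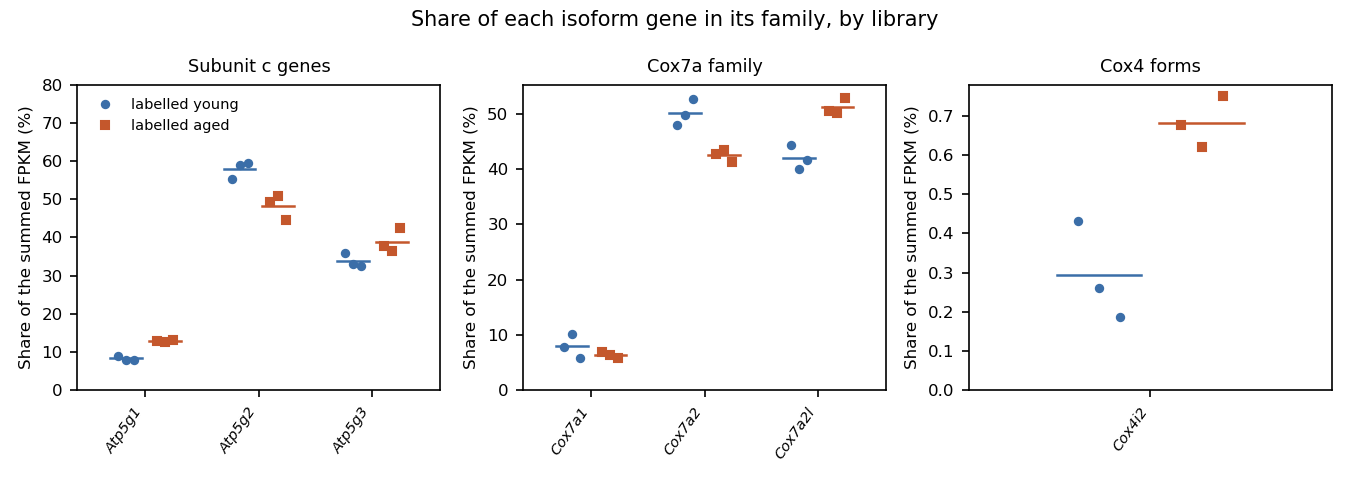
Share of each gene in the summed FPKM of its family, in percent, for the subunit c genes, the Cox7a family and Cox4i2 (the rest of its pair is Cox4i1); points are libraries, short lines group means, and all axes start at 0. The shares of Atp5g1, Cox7a2l and Cox4i2 are higher in every aged library than in any young one, and those of Atp5g2 and Cox7a2 are lower.

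Some subunits of the same complexes are encoded by mitochondrial DNA. The summed FPKM of the mitochondrial genes in the aged libraries was 1.70 times the young for complex I (7 genes), 1.63 times for complex III (mt-Cytb) and 1.02 times for complex IV (3 genes), where the nuclear sums stood at 0.963, 1.04 and 1.11 times. Of the 13 mitochondrial subunit genes 9 rose (69.2%, against 27.7% of all genes tested) and none fell. In complex I the mitochondrial sums were 3925, 3799 and 3664 FPKM in the young and 6454, 6747 and 6098 FPKM in the aged libraries, which did not overlap. The nuclear sums were 1633, 1771 and 1806 and then 1706, 1692 and 1617 FPKM, which did. In complex IV, mt-Co1 at 5077 to 5475 FPKM made up nearly the whole mitochondrial sum and did not pass the threshold (difference 0.02 ± 0.07), while mt-Co2 (0.25 ± 0.06) and mt-Co3 (0.49 ± 0.09) rose, as did the nuclear Cox6c, Cox5b and Cox4i1. The calls of mt-Co2 and mt-Co3 were lost without young libraries 1 and 3. The mitochondrial sum of ATP synthase rests on mt-Atp6 and mt-Atp8, of which neither passed. Far below mt-Co1, mt-Co2 was counted at 72.2 to 95.1 FPKM, mt-Co3 at 37.5 to 63.9 FPKM and mt-Atp6 at 26.35 to 44.8 FPKM. Copies of the mitochondrial genes were not looked for, and whether the counting lost reads of these genes was not tested.

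**Figure D5:**
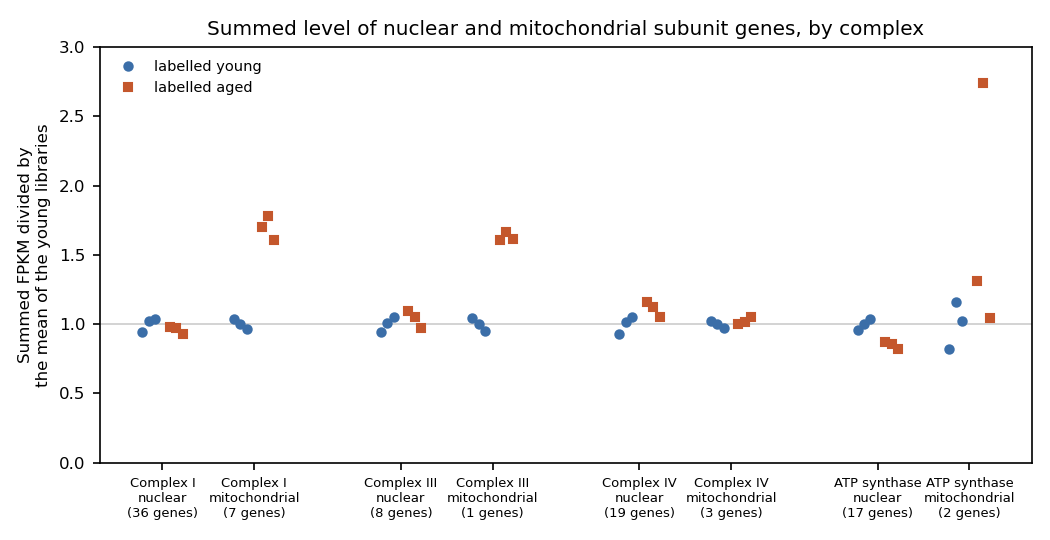
Summed FPKM of nuclear and mitochondrial subunit genes of each complex, divided by the mean of the 3 young libraries; blue circles are young and orange squares aged libraries, and the number of genes is given below each pair. The mitochondrial sums of complexes I and III lie above 1.5 in all aged libraries, whereas the nuclear sums of all 4 complexes stay between 0.8 and 1.2.

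The genes that build and feed the chain were counted from lists. Beside these counts, and those of the lists that follow, 27.7% of all genes tested rose and 32.3% fell. Of 22 tested assembly genes of complex IV 8 rose and 6 fell (median 0.16). Lrpprc, which stabilises mitochondrial mRNAs, rose by 0.57 ± 0.04, Coa5 by 0.51 ± 0.05, and Cox10, which makes the haem of the enzyme, by 0.50 ± 0.06. Of 6 assembly genes of complex III 1 rose and 4 fell (median -0.24), with Uqcc3 and Ttc19 falling by 0.47 ± 0.11 and 0.17 ± 0.04 and Bcs1l, which inserts the Rieske protein, by 0.39 ± 0.11. Without young libraries 1 and 3 the calls of Uqcc3 and Ttc19 were lost, that of Ttc19 also with median centring or quantile normalization, and that of Bcs1l without aged library 1 or 3 or young library 2 or 3. For ATP synthase, Fmc1 fell by 0.58 ± 0.10, Atpaf2, which binds the alpha subunit during assembly, rose by 0.21 ± 0.06 (lost without any library but aged 2 and young 2, with the replicate block and with no filter), and Atpaf1 did not pass. Over all 45 tested assembly genes of the lists 15 rose and 14 fell.

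The tricarboxylic acid cycle, which supplies NADH and succinate, had 12 of 14 genes lower and none higher, with a median of -0.31. Idh2, a mitochondrial isocitrate dehydrogenase, read 107, 112 and 116 FPKM in the young and 50.3, 50.1 and 52.3 FPKM in the aged libraries (fall of 1.12 on the log2 scale, standard error 0.04, adjusted p = 4.6e-06). Suclg2 and Fh1, the succinyl-CoA ligase and fumarase, fell by 0.86 ± 0.06 and 0.76 ± 0.05. Of 13 genes of ubiquinone synthesis 8 fell and 3 rose (median -0.22), with falls of 0.78 ± 0.05 in Coq2 and 0.77 ± 0.06 in Coq3 and a rise of 0.78 ± 0.07 in Coq10b. Of 7 genes of other routes that pass electrons to ubiquinone 4 fell and none rose (median -0.39). Etfa, an electron carrier of fatty acid oxidation, fell by 0.71 ± 0.04, the sulphide oxidase Sqor by 0.94 ± 0.06 and proline dehydrogenase (Prodh) by 0.58 ± 0.08. Among 7 tested carriers and channels for ADP, phosphate and protons 4 fell and 1 rose (median -0.10), led by Vdac1 (-0.73 ± 0.04) and Ucp2 (-0.87 ± 0.07), while the ADP/ATP carrier Slc25a5 rose by 0.23 ± 0.05. Cytochrome c itself (Cycs) was level at 64.4 ± 3.10 and 66.8 ± 1.27 FPKM.

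Genes that adjust the chain when oxygen is low formed a list of 8, of which 6 fell and 2 rose (median -1.33). Ndufa4l2, the relative of Ndufa4 that is induced by low oxygen, read 92.9, 98.6 and 67.8 FPKM in the young and 6.96, 6.57 and 6.06 FPKM in the aged libraries, a fall of 3.52 on the log2 scale with a standard error of 0.14 (13.2-fold lower in FPKM, adjusted p = 5.8e-06). Ndufa4 itself read 89.5, 96.1 and 96.3 FPKM and then 103, 96.2 and 96.8 FPKM and did not pass the threshold. Pdk1, the kinase that keeps pyruvate out of the cycle, fell by 1.96 ± 0.07, and Mxi1 by 1.16 ± 0.04. The 2 rises of this list were Cox4i2 and the protease Lonp1.

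Of 23 regulators of mitochondrial gene expression 5 rose and 6 fell (median -0.02). The falls included factors known to act on nuclear genes of the chain: Nrf1 read 4.63, 4.10 and 4.42 FPKM in the young and 2.36, 2.59 and 2.28 FPKM in the aged libraries (fall of 0.66 ± 0.06, adjusted p = 0.00017), Gabpa fell by 0.56 ± 0.05 and Esrra by 0.56 ± 0.04. Every aged value of these 3 factors lay below every young value. Yy1 was level, at 14.8, 14.8 and 14.6 against 13.7, 14.6 and 16.2 FPKM. Ppargc1a, a coactivator of these factors, did not pass either (-0.12 ± 0.07).

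The letters these factors are known to bind were looked for in RefSeq promoter windows of 300 bases (250 before and 50 after the start, GRCm38.p6), of which 75 members had at least 1. The searches covered both strands. The NRF1 motif (GCGCA, any base, then GCGC) was present in 26.7% of the members and 7.17% of 17492 protein-coding genes. CCGGAAG, the core bound by GABPA and other ETS factors, was present in 24.0% and 12.9%, and AAGATGGC, the YY1 motif, in 13.3% and 3.57%. At least 1 of these 3 was present in 54.7% of the members and in 3679 of the 17492 protein-coding genes. The ESRRA motif TCAAGGTCA was in 2.67% and 0.377%, and ACGTG, the core of the hypoxia response element, which the E-box CACGTG also holds, in 22.7% and 23.2%. Presence went with no single direction: the NRF1 letters were in 4 of 18 members that rose, 7 of 23 that fell and 8 of 30 that did not pass, and the ETS letters in 5, 3 and 10 of them. Stretches of 80 bases upstream of the start are shown for 3 genes that rose or fell and that had a match upstream of the start. Letters matched there are in capitals (the ETS core of both Ndufaf genes and the NRF1 motif of Ndufa11). The window of Ndufaf8 also held the YY1 motif, which did not lie wholly upstream of the start and is not marked.
Ndufa11, chr17:56717666-56717745, plus strand, rose: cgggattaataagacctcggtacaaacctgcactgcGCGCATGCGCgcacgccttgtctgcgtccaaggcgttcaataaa
Ndufaf1, chr2:119662835-119662914, minus strand, rose: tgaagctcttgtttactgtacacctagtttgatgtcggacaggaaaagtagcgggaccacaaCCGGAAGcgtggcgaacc
Ndufaf8, chr11:120098854-120098933, plus strand, fell: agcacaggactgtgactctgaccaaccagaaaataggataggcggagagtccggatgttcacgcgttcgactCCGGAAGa
The NRF1 letters of Ndufa11 lie 60 to 51 bases before the start. The ETS letters lie 18 to 12 bases before the start in Ndufaf1 and 8 to 2 bases before it in Ndufaf8, so the same letters stood close to the start of a gene that rose and of a gene that fell. A match is a stretch of letters and shows no binding.

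Across the members, the libraries of a group were not exchangeable. Young library 1 was the lowest of its group for 63 of 87 members and aged library 3 for 59, where 35.5% and 34.7% of all genes tested were lowest in these libraries. Young library 3 was the highest of its group for 55 members and aged library 1 for 50. The median member deviated from its group mean by -0.07 on the log2 scale in young library 1 and by 0.05 in young library 3. Young library 1 was also the library with most kidney marker RNA, and the part of that RNA in these deviations was not tested. Short and long genes were compared because many members are short: the difference and gene length had a Spearman correlation of -0.17 over the 87 members and -0.105 over 11693 protein-coding genes, which share the libraries. Members under 1000 bases had 6 rises and 5 falls of 21, where 33.2% of all protein-coding genes of that length rose and 23.1% fell. Members of 2000 bases or more had 6 rises and 12 falls of 33, where the shares were 28.8% and 38.9%.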

How the data were processed

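Total RNA from tissue labelled lung was sequenced as paired-end reads, and, per the labels' protocols and the submitters' processing notes, the reads were aligned to mm10 with HISAT2 2.0.5; the counting tool and annotation were not given in the sources used here. The authors deposited 1 table of FPKM values per gene and library, which divides each gene's reads by its length and by a library size. That size lay below the recovered reads in the young libraries (17219401 against 17266815 in young library 1). In the aged libraries it lay above them (17194677 against 16887256 in aged library 1). All values above 0 were whole multiples of a read within 0.01 (100%), so reads were recovered (16649061 to 17456715 per library); read numbers and intervals cover counting error only. The table's length equals the union of a gene's GENCODE M21 exons for 87 of 93 members, a median of 1.52 times the principal transcript and at least 3 times for 15 members, which lowers the FPKM of those genes but not their ratio between libraries. Members were selected by symbol and grouped by complex; the members and gene lists were chosen with earlier results of these data known. Groups came from the labels. The values of 1 member are not reported here, though it stays in the counts and medians.

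Values were tested as log2(FPKM + 1) with limma 3.58.1 in R 4.3.3 (trend, no covariates, 3 against 3), on 15197 genes of at least 0.5 FPKM in 3 libraries, with Benjamini-Hochberg adjustment over all of them; an exact permutation test of 3 against 3 libraries cannot go below p = 0.1 and was not used. The test was run on simulated reads with few changed genes and independent libraries, so that check does not cover the shifts between libraries seen here. The genes named are, per complex, the 3 largest rises and falls past the threshold, the most and least abundant gene, the isoform sets, the Sdh and Ndufaf genes, and up to 3 genes of smallest p per list; others were picked after their values were seen. Copies were pseudogenes at least 95% identical over 150 bases or more: 22 tested members had 42, of which 25 reached 1 FPKM. Where reads of copies were added to their gene, near-identical protein-coding rows with Gm names, such as Gm11273 for Cox5b, were added too. Reads of a gene and of a copy, or of genes that share exons (Atp5f1 and Wdr77, for example), may have been divided between rows. Promoter windows were RefSeq's; 60 of 80 windows had their bases after the start in a GENCODE transcript of the gene. Alternatives covered pseudocount, filter, scaling (TPM, median, quantile), moderation, voom on recovered reads, the replicate block and leaving out libraries.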

Additional observations from a re-analysis of the deposited data

How the results depend on the processing

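Over 21 alternatives, 31 of the 50 called members kept their call under every one, and none of the 50 changed direction. Between 15 and 26 members were higher and between 21 and 32 lower. Median centring moved the median difference to 0.035 for complex I, -0.094 for complex II, 0.21 for complex IV and 0.017 for ATP synthase (complex V), and quantile normalization moved that of complex IV to 0.27. With voom on recovered reads the median of complex I was 0.0053. Leaving out 1 library gave medians from -0.058 to -0.005 (complex I), -0.195 to -0.122 (II), -0.128 to 0.014 (III), 0.087 to 0.186 (IV) and -0.090 to -0.007 (V), with 20 to 25 members higher and 23 to 30 lower, and 3764 to 4030 genes higher and 4363 to 4678 lower over all. Complex III was positive only without aged library 3. Uncalled members changed sign near 0: Cox7b to 0.021 with TPM, 0.060 with median centring, 0.036 with quantile normalization and 0.031 with voom, Ndufb2 to 0.0006 with median centring, and Cox8a to -0.0068 without young libraries 1 and 3. Leaving out 1 library gave -0.0185 to 0.0025 for Cox7b (above 0 without aged or young library 3), -0.107 to 0.0147 for Ndufb2 (above 0 without aged library 2) and -0.0191 to 0.0922 for Cox8a (below 0 without young library 1). The cause was not tested. Chosen after seeing the data were leaving out young libraries 1 and 3 (15 members higher, 23 lower, and 2938 and 3296 genes over all) and adding the reads of copies (22 higher, 29 lower).

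Same-numbered libraries of the groups did not deviate together (correlations 0.0056, -0.0079 and 0.0192). With 3 libraries per group these correlations cannot show whether same-numbered libraries shared a preparation or run. With the replicate block, 21 members were higher and 27 lower, and 3927 and 4514 genes over all. Depth limited the low forms: Cox6a2, Cox6b2 and Cox7b2 rested on at most 18 reads per group. As a guide, 3 reads on 1000 bases correspond to about 0.17 FPKM, a value that changes with gene length and is no common floor.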
